A study of Mus musculus with 28 samples.

Results

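Lipocalin 2 (Lcn2), clusterin (Clu) and 6 further genes of the acute phase response (C3, C4b, Serpina3n, Cp, Hp and Timp1) were followed in mouse pituitary RNA-seq libraries. These 8 genes are 8 of the 32594 genes in the count table. Lcn2 and Clu were chosen because they rose after sleep deprivation in these same libraries, so their rise is described here and not tested, and the other 6 were chosen as related acute phase genes. Whole pituitary glands came from 28 C57BL/6J mice that were 8 weeks old on arrival, before adaptation and the challenges, 16 females and 12 males, with 1 library per mouse. Home cage controls had neither challenge (4 females and 4 males). Restraint mice were held in restrainers for 20 min and killed 10 min later (4 females, 2 males). PSD mice had 12 h of paradoxical sleep deprivation, in which mice on small columns over water are woken as muscle tone is lost, and were killed 18 h after it ended (4 females, 3 males). PSD + restraint mice had both, with the restraint after the 18 h (4 females, 3 males). Every mouse, controls included, had been adapted to the deprivation tank on earlier days. Cage mates shared a tank, and the labels tie no mouse to a tank, so a tank effect cannot be told apart from PSD.

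The acute phase response is the change in secreted proteins that follows infection, injury or stress. It is best known from the liver, where cytokines of the interleukin 1 and interleukin 6 families act through NF-kB, STAT3 and C/EBP factors and glucocorticoids reinforce them, but many tissues make some of its proteins. Lcn2 binds iron-carrying bacterial siderophores, Clu is a secreted chaperone, Serpina3n inhibits serine proteases, Cp (ceruloplasmin) is a copper-carrying ferroxidase, Hp (haptoglobin) binds free hemoglobin, C3 and C4b are complement components, and Timp1 inhibits matrix metalloproteinases.

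Levels are given as CPM, the counts of a gene divided by the library total and multiplied up to a fixed library size, scaled for library composition. Totals ran from 14024465 to 52948531 counts per library, with a median of 33389717. In bulk tissue, a change in the number of cells that make a transcript and a change in the amount per cell cannot be told apart. The hormone transcripts Gh, Prl, Pomc, Lhb, Tshb and Cga together made up 241484 to 364491 CPM in every library, so the glands were pituitary as labelled. Of the other tissue markers examined, 5 libraries stood apart. Restrained female 3 had 733 CPM of summed adipose markers against at most 4.76 in any other mouse. PSD female 1 had 389 CPM of brain markers and 306 CPM of olfactory markers, against at most 231 and 54.9 elsewhere. PSD female 3 had 5335 CPM of Ttr, the thyroid hormone carrier transthyretin, against at most 6.28 elsewhere. PSD + restraint male 2 had 129 CPM of neutrophil markers against at most 27, and control male 1 had 14.6 CPM of neurointermediate lobe markers against at least 71.3. Results that rest on one of these mice are given with and without it, except for the male changes of Clu, which include control male 1. Liver albumin (Alb) was at most 0.0519 CPM in all libraries.

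Per kilobase of exon, Clu was by far the most abundant member, at 160 CPM per kb in control females and 159 in control males. Lcn2 followed at 5.37 in control females and 20.2 in control males. The other members lay between 0.135 (Hp, control females) and 4.00 (Timp1, control males) CPM per kb. Clu and Lcn2 were thus expressed at rest in every gland, whereas Hp, C4b and Serpina3n were close to the lower limit of what these libraries measured, with Hp at 25 counts or fewer in all but 2 of the 28 mice.

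**Figure D1:**
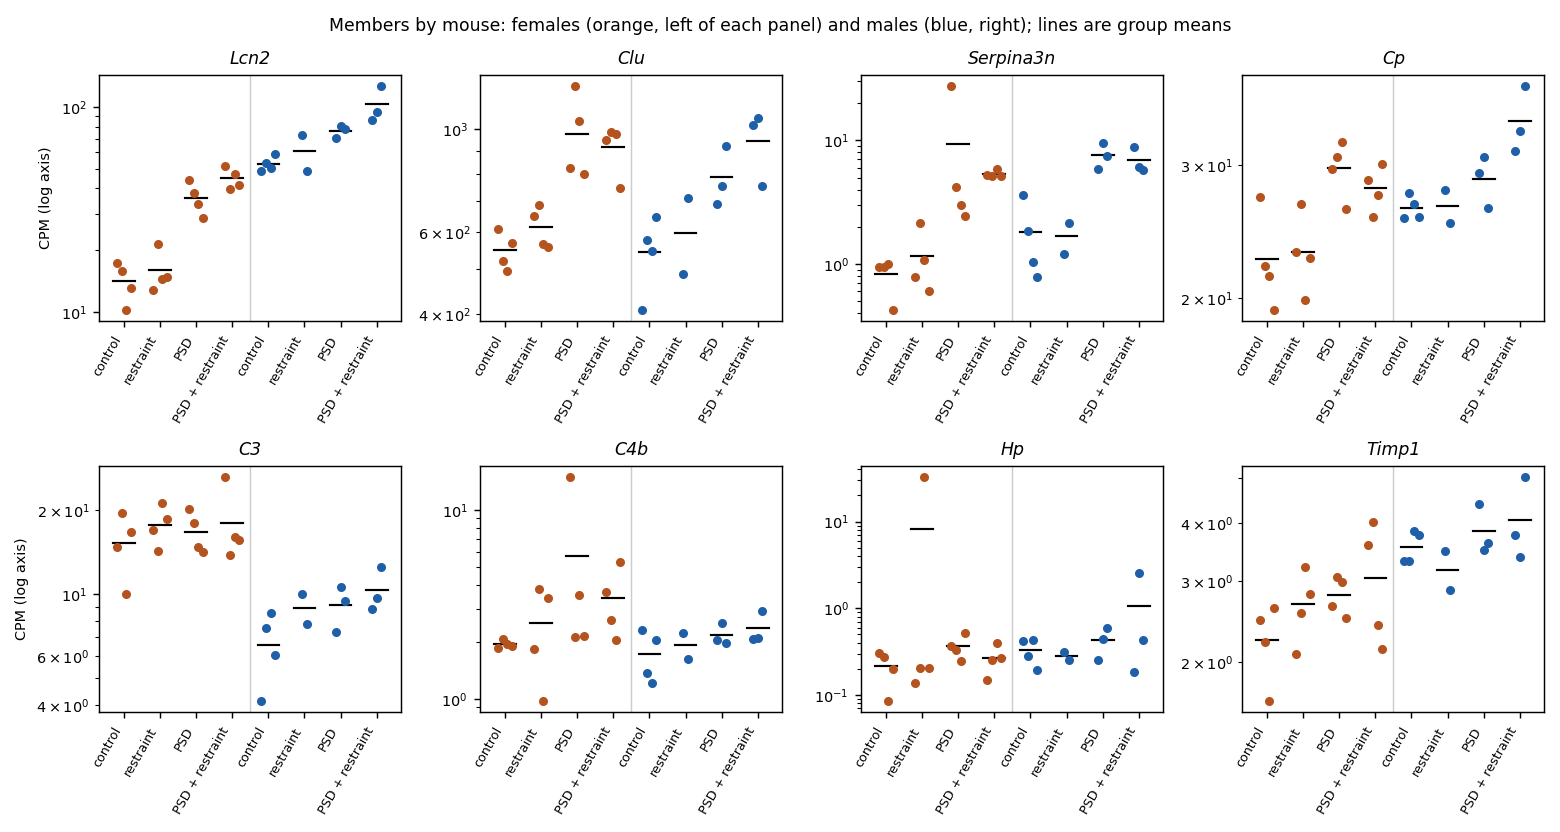
CPM of the 8 members in each mouse on a log axis, 1 point per mouse, with females in orange on the left and males in blue on the right of each panel and lines at the group means. Lcn2, Clu and Serpina3n are higher in the PSD and PSD + restraint groups of both sexes, Lcn2 and Timp1 are higher in males, C3 is higher in females, and single mice stand out for Hp at 32.6 CPM, C4b at 14.9 CPM and Serpina3n at 27.6 CPM.

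Lcn2 (ENSMUSG00000026822) lies on chromosome 2 of mm10, 32384633 to 32388252, on the minus strand. In control females it measured 17.3, 15.8, 10.3 and 13.1 CPM, and after PSD 43.8, 38.2, 33.8 and 28.7 CPM. PSD + restraint females were at 51.3, 39.8, 47.2 and 41.4 CPM. Every female that had PSD lay above every female that had not, since restrained females stayed at 12.8, 21.5, 14.5 and 14.8 CPM. Control males began at 48.7, 53.5, 50.6 and 58.9 CPM, the lowest of which was exceeded by a single female, after PSD + restraint. PSD males measured 70.1, 80.3 and 78.4 CPM, and PSD + restraint males 86.7, 94.8 and 127 CPM. These males lay above all control males, but 1 of the restrained males, at 72.8 CPM against 48.6 in the other, overlapped the PSD group. The fitted log2 fold change after PSD alone was 1.36 (SE 0.18) in females and 0.54 (SE 0.14) in males, and after PSD + restraint 1.68 (SE 0.18) and 0.96 (SE 0.14). These values chose the gene and are given with no test.

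Restraint itself did not choose Lcn2. Its comparisons share the control or PSD mice with the one that did, so their p-values are not independent of that choice. Without prior PSD, the log2 fold change for restraint was 0.19 (SE 0.18) in females (edgeR quasi-likelihood test, adjusted p = 0.832) and 0.20 (SE 0.16) in males (adjusted p = 0.9998), and the male value rested on 2 restrained mice that differed by more than the fitted change. Among mice that had PSD, restraint moved Lcn2 by 0.32 (SE 0.17) in females (adjusted p = 0.573) and 0.42 (SE 0.15) in males (adjusted p = 0.347). In males all 3 PSD + restraint mice were above all 3 PSD mice, as they were for 7.53% of the 18271 genes tested. In females the 2 groups overlapped. The interaction, the extra change when both challenges met, was 0.13 (SE 0.25) in females and 0.22 (SE 0.22) in males. It contains the change after PSD alone that chose the gene, and is given with no test.

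Clu (ENSMUSG00000022037; chromosome 14, 65968483 to 65981547, plus strand) had a far higher base than Lcn2. It moved by a smaller ratio in females and after PSD + restraint in males. After PSD alone in males both genes had a log2 fold change of 0.54. Control females measured 609.9, 522, 495 and 568 CPM and PSD females 826, 1241, 1043 and 803 CPM. PSD + restraint females were at 948, 987, 976 and 746 CPM, and restrained females at 650.0, 688, 565 and 557 CPM. As for Lcn2, every female with PSD was above every female without. Control males were at 409, 577, 546 and 648 CPM, PSD males at 691, 756 and 921 CPM, and PSD + restraint males at 1019, 1059.9 and 756 CPM. Restrained males measured 487 and 711 CPM, so the higher of them overlapped the PSD males, which were otherwise all above the controls. The fitted log2 fold change for PSD alone was 0.84 (SE 0.13) in females and 0.54 (SE 0.17) in males, and for PSD + restraint 0.75 (SE 0.13) and 0.80 (SE 0.17), again as a description of what chose the gene. Control male 1, at 409 CPM the lowest male, was the gland with few neurointermediate lobe markers. The male values of Clu include it and are not given without it. Restraint alone gave 0.17 (SE 0.13) in females (edgeR adjusted p = 0.750) and 0.14 (SE 0.19) in males (adjusted p = 0.9998). These values share the control mice with the comparison that chose Clu.

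Among restrained mice, Lcn2 differed with prior PSD by 1.49 (SE 0.18) in females and 0.76 (SE 0.17) in males on the log2 scale, and Clu by 0.57 (SE 0.13) and 0.66 (SE 0.21), again with no test. Both male values rest on 2 restrained mice. Without restrained male 2 they were 1.09 for Lcn2 and 0.42 for Clu, and without restrained male 3 they were 0.49 and 0.95. The markers of the neurointermediate lobe (Pax7, Rax, Col25a1, Nkx2-1, Avp and Oxt) also varied between glands, from 98.0 to 129 CPM summed in control females and from 110 to 208 in PSD females, and from 14.6 to 114 in control males and 88.9 to 98.3 in PSD males. Clu deviated from its group means together with that sum (Pearson r = 0.70, 28 mice, which share dissection and library composition), and Lcn2 did so less (r = 0.15). With the level of these markers as a term in the fit, the log2 fold change of PSD alone was 0.65 for Clu in females and 0.43 in males, and 1.27 and 0.52 for Lcn2. The part of the lobe in the change was not tested further.

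**Figure D2:**
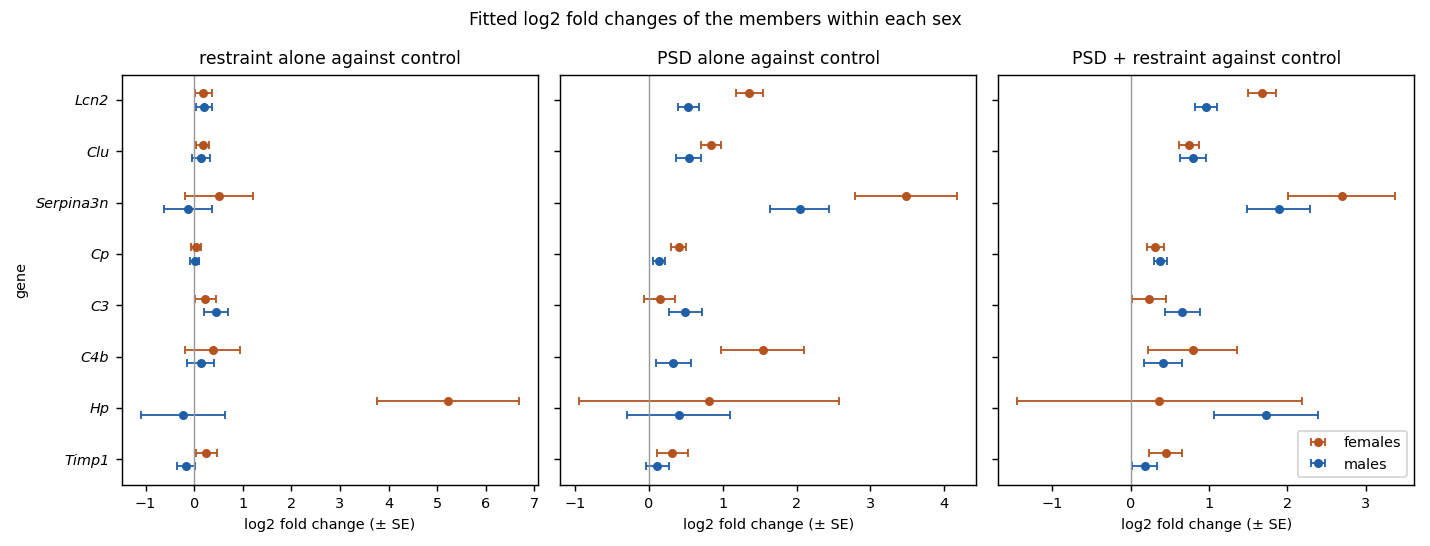
Fitted log2 fold change against control (horizontal axis, points with bars of ± 1 SE) for the 8 members after restraint alone, PSD alone and PSD + restraint, with females in orange and males in blue. After restraint alone Lcn2 and Clu sit between 0.14 and 0.20 in both sexes, and after PSD the largest value is that of Serpina3n, 3.48 in females and 2.04 in males; the female Hp value of 5.23 after restraint comes from 1 mouse.

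Serpina3n (ENSMUSG00000021091; chromosome 12, 104406729 to 104414329, plus strand) showed the largest rise after PSD of the remaining 6 genes. It entered as a related gene and not by a rule on its values, but earlier results of these data were known by then. Control females measured 0.948, 0.950, 0.997 and 0.428 CPM and restrained females 0.785, 2.16, 1.07 and 0.610 CPM. PSD females measured 27.6, 4.2, 2.98 and 2.45 CPM and PSD + restraint females 5.22, 5.14, 5.88 and 5.13 CPM. Apart from the single high mouse, females with PSD lay between 2.45 and 5.88 CPM and females without it at 2.16 CPM or below. In males the controls were at 3.63, 1.86, 1.03 and 0.792 CPM and the restrained mice at 1.2 and 2.15 CPM. PSD males were at 5.86, 9.49 and 7.54 CPM and PSD + restraint males at 8.80, 6.05 and 5.77 CPM. In each sex, every mouse that had PSD was thus above every mouse that had not. Among the 17858 genes tested in both sexes, only 7 (0.0392%) were arranged in this way, and the other 6 were Apod, Cdh13, Mthfd1l, Nmb, Pla1a and Serpinb11, which are given because of this arrangement and not by a rule. Lcn2 and Clu met the condition in females and missed it in males through the 1 restrained male described for each.

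In the fit of all mice, Serpina3n rose by 2.76 (SE 0.44) on the log2 scale after PSD alone (edgeR adjusted p = 0.00232) and by 2.22 (SE 0.43) after PSD + restraint (adjusted p = 0.00127). Within a sex, PSD + restraint passed the test in females at 2.69 (SE 0.69, adjusted p = 0.0476) and in males at 1.89 (SE 0.40, adjusted p = 0.0261). PSD alone did not pass, at 3.48 (SE 0.69) in females (adjusted p = 0.0742) and 2.04 (SE 0.39) in males (adjusted p = 0.135). Among restrained mice the fit of all mice gave 2.12 (SE 0.47) with prior PSD (adjusted p = 0.0768). Restraint alone gave 0.51 (SE 0.71) in females and -0.13 (SE 0.49) in males. PSD female 1, with its brain and olfactory transcripts, carried the highest value, and without it the female change for PSD alone was 1.93 (adjusted p = 0.0886) and that in all mice 1.99 (adjusted p = 0.00211). Control male 1, the highest of the males without PSD, also had 161 CPM of brain markers against 75.8 to 88.8 in the other control males, and without it PSD alone in males gave 2.65 (adjusted p = 0.0239). The female PSD + restraint value lost its call in 10 of the 16 fits that left out 1 mouse (adjusted p up to 0.147) and the male one in 5 of 12 (up to 0.13), while in all mice both changes passed in each of 28. Serpina3n belongs to a cluster of near-identical genes, among which the counting may have divided reads.

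The sequences just before the annotated starts of Lcn2 and Serpina3n are shown because these were the members with the largest ratios after PSD that have an entry in the RefSeq promoter table. Bases are 5′ to 3′ on the strand of the gene, in build GRCm38.p6. Capitals mark matches to TTGCNNAA, a motif of C/EBP factors, at 216 bases before the Lcn2 start, and to ACANNNTGT, a motif of the glucocorticoid receptor, at 152 bases before the Lcn2 start and 76 before that of Serpina3n. The Lcn2 window, chr2:32387798-32387989 on the minus strand, stops 58 bases before the start, where sequence annotated as untranslated for the gene begins. Sequence annotated as coding for the gene lies within 32387851 to 32387989. Whether both belong to the same transcript was not examined. The Serpina3n window is chr12:104406458-104406707 on the plus strand.
Lcn2: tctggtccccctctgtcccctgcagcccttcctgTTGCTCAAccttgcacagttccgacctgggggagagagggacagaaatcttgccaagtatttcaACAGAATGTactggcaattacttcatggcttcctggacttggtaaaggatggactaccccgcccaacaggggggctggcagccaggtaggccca
Serpina3n: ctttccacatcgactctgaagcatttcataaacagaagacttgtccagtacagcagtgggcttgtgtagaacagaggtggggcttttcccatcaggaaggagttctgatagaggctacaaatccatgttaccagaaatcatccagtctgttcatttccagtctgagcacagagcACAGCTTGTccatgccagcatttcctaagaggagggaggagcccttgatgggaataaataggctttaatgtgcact
The 250 bases before the start were searched on both strands in 5 members, with 2 starts for Cp. The glucocorticoid receptor motif was found for Lcn2 and Serpina3n, against 5.84% of 32851 promoters of the same length. The C/EBP motif was found for Lcn2, C3 and 1 of the Cp starts, against 9.56%, and the AP-1 motif TGANTCA for the other Cp start, against 6.75%. The NF-kB motif GGANTTTCC (1.07% of promoters) and the STAT3 motif TTCNNNGAA (7.02%) were not in these windows. A match is a match of letters and was not tested as a binding site, and Clu, C4b and Hp were not searched.

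Cp (ENSMUSG00000003617; chromosome 3, 19957054 to 20009145, plus strand) rose slightly. Males measured 25.5, 27.6, 26.6 and 25.6 CPM as controls and 31.3, 33.3 and 38.2 CPM after PSD + restraint, with no overlap. Their log2 fold change was 0.38 (SE 0.08, edgeR adjusted p = 0.0294), and that in all mice was 0.34 (SE 0.07, adjusted p = 0.00369). Females went from 27.3, 22.1, 21.4 and 19.3 CPM to 28.7, 25.6, 27.4 and 30.1 CPM, where the highest control overlapped the treated mice, and the change of 0.32 (SE 0.11) did not pass (adjusted p = 0.110). After PSD alone, Cp gave 0.40 (SE 0.11) in females (adjusted p = 0.109), 0.14 (SE 0.08) in males (adjusted p = 0.676) and 0.28 (SE 0.07) in all mice (adjusted p = 0.0651). Its changes lay near the 1.25-fold that a call required. Without the 5 libraries that stood apart, the change after PSD + restraint was 0.38 in males (adjusted p = 0.0985) and 0.33 in all mice (adjusted p = 0.00851).

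The complement components did not pass a test for either challenge. C3 (ENSMUSG00000024164; chromosome 17, 57203970 to 57228136, minus strand), the protein on which the complement pathways converge, measured 4.14, 7.57, 8.52 and 6.03 CPM in control males and 8.80, 9.71 and 12.5 CPM in PSD + restraint males. These males did not overlap, with a log2 fold change of 0.66 (SE 0.22, edgeR adjusted p = 0.143). Control females at 14.7, 19.5, 9.97 and 16.7 CPM overlapped PSD + restraint females at 26.2, 13.8, 16 and 15.7 CPM, and the female change was 0.23 (SE 0.21, adjusted p = 0.582). C4b (ENSMUSG00000073418; chromosome 17, 34728380 to 34743882, minus strand) measured 1.85, 2.08, 1.94 and 1.91 CPM in control females and 14.9, 2.13, 3.53 and 2.15 CPM in PSD females. All 4 PSD females were above the controls, yet the log2 fold change of 1.54 (SE 0.57, adjusted p = 0.163) was set by PSD female 1, and without that mouse it was 0.41 (adjusted p = 0.639). In males it was 0.33 (SE 0.24, adjusted p = 0.737). Reads of C4b cannot be told from those of its near-identical copy C4a with certainty.

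Timp1 (ENSMUSG00000001131; chromosome X, 20870166 to 20874735, plus strand) did not pass for either challenge. Given both challenges, its log2 fold change was 0.45 (SE 0.21) in females (edgeR adjusted p = 0.245), 0.18 (SE 0.16) in males (adjusted p = 0.610) and 0.31 (SE 0.13) in all mice (adjusted p = 0.138). Its levels ran from 1.65 to 4.02 CPM in females and from 2.86 to 5.02 CPM in males, and treated and control mice overlapped in both sexes.

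Hp (ENSMUSG00000031722; chromosome 8, 109575128 to 109579172, minus strand) was near 0 in most glands. Restrained females measured 0.137, 0.203, 32.6 and 0.203 CPM, and control females 0.309, 0.271, 0.0855 and 0.200 CPM. The restrained female at 32.6 CPM (1005 counts) was mouse 3, which also had 216 CPM of Ucp1, 40.5 CPM of Adipoq and 425 CPM of Fabp4, against at most 1.23, 0.138 and 3.84 CPM in any other mouse. Because of it, Hp passed the test for restraint in the fit of all mice, with a log2 fold change of 4.28 (SE 1.09, edgeR adjusted p = 0.0390), and without that mouse the value was -0.22 (adjusted p = 0.963). The call was lost in 13 of the 28 fits that left out 1 mouse. The next highest gland, PSD + restraint male 2 at 2.57 CPM, was the one with the high neutrophil markers. Lcn2, which neutrophils also store, was 94.8 CPM in that gland, between the 86.7 and 127 CPM of the other 2 males of its group. Every other gland had between 0.0855 and 0.590 CPM of Hp.

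**Figure D3:**
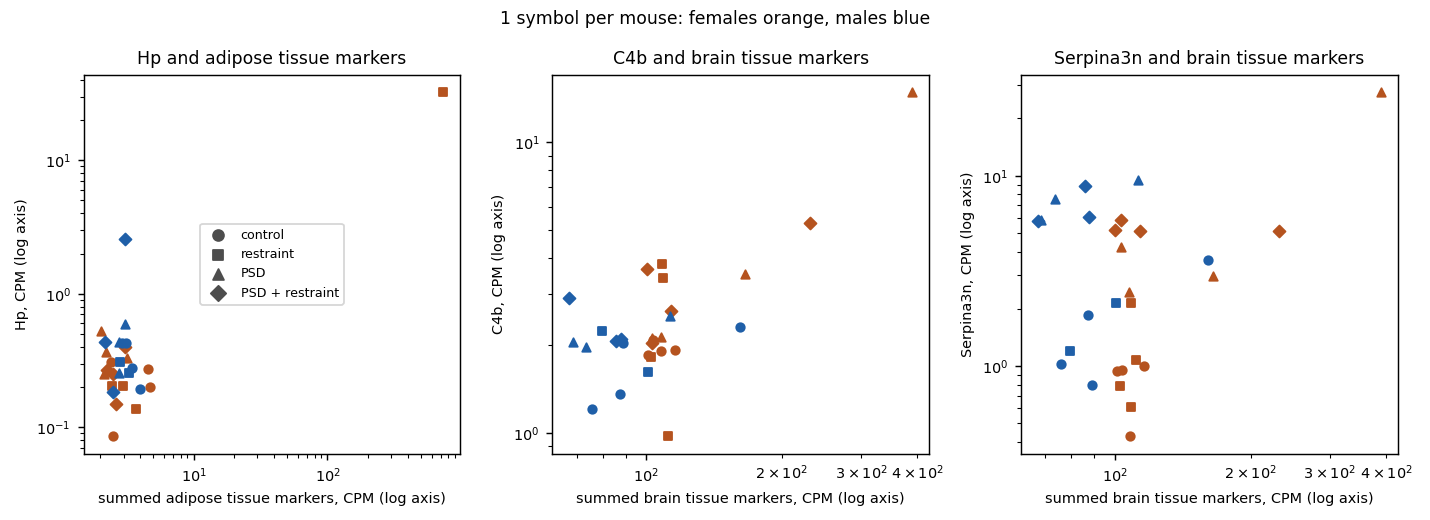
Each symbol is a mouse (females orange, males blue, shape by treatment), with the summed CPM of adipose markers (left) or brain markers (middle and right) on the horizontal axis and the CPM of Hp, C4b and Serpina3n on the vertical axis, both on log scales. Restrained female 3 is alone at the upper right for Hp, and PSD female 1 with 389 CPM of brain markers is the highest for C4b and Serpina3n, while males with PSD are high for Serpina3n at 67.5 to 113 CPM of brain markers, against 75.8 to 161 in control males.

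Read as a set, the 6 genes that were not chosen by PSD had log2 fold changes above 0 in 6 of 6 cases for PSD alone in females, with a median of 0.61 against 0.01 over all genes, and none passed the test in edgeR (3 of 6 had an unadjusted p under 0.05, as did 19.8% of all genes, and DESeq2 called 2). Over all genes that comparison called 0.0277% of 18059. In males all 6 were above 0 with a median of 0.37, and none passed (2 of 6 under an unadjusted p of 0.05, as were 8.85% of all genes, and 1 by DESeq2), where 0.00547% of 18271 genes did. Both medians lean on Hp, which was near the floor (0.81, SE 1.76, in females and 0.40, SE 0.70, in males). PSD female 1 raised the largest female values, those of Serpina3n and C4b, which were 1.93 and 0.41 without it. For PSD + restraint, 1 of 6 passed in females (Serpina3n) against 2.2% of genes, 2 of 6 in males (Serpina3n and Cp) against 2.56%, and the same 2 in all mice against 5.46% of 18936. For PSD alone in all mice 1 of 6 passed (Serpina3n) against 0.671%. Among restrained mice, none of the 6 passed with prior PSD in females, males or all mice, where 0.0332%, 0.00547% and 0.0951% of genes did, and 3 of 6 had an unadjusted p under 0.05 in each, as did 14.1%, 10.5% and 13.5% of all genes. DESeq2 called 1 in all mice and none within a sex.

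Counts of members whose treated mice were all above the others have a higher background. After PSD alone this held in females for Lcn2, Clu, C4b and Serpina3n, against 3.83% of genes, and in males for Lcn2, Clu and Serpina3n, against 4.69%. After PSD + restraint it held in females for Lcn2, Clu and Serpina3n (6.82% of genes) and in males for Lcn2, Clu, C3, Serpina3n and Cp (6.97%). With prior PSD among restrained mice it held for Lcn2, Clu and Serpina3n in females (3.36%) and for the same 3 and Cp in males (12.7%). Lcn2 and Clu are in these counts by choice.

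None of the 8 members passed for restraint alone in females, where 0.543% of genes did, or in males, where 0.296% did, and in all mice (1.14% of genes) the only call was that of Hp from 1 mouse. At an unadjusted p under 0.05 there was 1 member in females (Hp), none in males and 1 in all mice (Hp), and DESeq2 called none. Among PSD mice restraint moved no member past the test, against 0.941% of genes in females, 0.285% in males and 2.01% in all mice, with 0, 2 and 1 members under an unadjusted p of 0.05 and none called by DESeq2. The interaction of PSD and restraint called no member and no gene in edgeR (0% in females, males and all mice), with 766, 702 and 743 genes under an unadjusted p of 0.05, among them 1, 0 and 1 members, and DESeq2 called none either. Lcn2 and Clu are in these counts, although the comparisons share control or PSD mice with those that chose them.

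Of 29 regulators of the acute phase response (cytokines, their receptors, and NF-kB, STAT3 and C/EBP factors), 3 of the 27 tested rose with restraint alone in all mice (1.14% of all genes were called). The 3 were Il1b, which encodes interleukin 1 beta, at a log2 fold change of 2.46 (SE 0.21), Nfkbiz, an NF-kB cofactor needed for Lcn2 induction in other cells, at 0.74 (SE 0.11), and Cebpd, a C/EBP factor, at 0.67 (SE 0.15), with adjusted p of 2.49e-08, 1.7e-04 and 0.0110 in edgeR. Il1b was 0.598 to 0.827 CPM in control females and 3.61 to 7.09 CPM in restrained females, and 0.416 to 0.895 CPM after PSD alone. After PSD alone, Il1b gave -0.10 (SE 0.27) in females and 0.12 (SE 0.27) in males. None of the regulators passed the test after PSD alone in females, males or all mice. Few genes did in these comparisons, at 0.0277%, 0.00547% and 0.671% of all genes. Missing the test does not show that the regulators were the same after PSD alone. Some groups did not overlap, but this has a background over all genes. In females PSD alone put every treated mouse above every control for 3.83% of genes and below for 4.78%. The shares in males were 4.69% and 5.73%, so the genes below are not read as a result about the regulators. Nfkbia, the NF-kB inhibitor, named here after its values were known, was at 36.0 to 52.0 CPM in PSD females against 59.2 to 84.1 CPM in control females (log2 fold change -0.73, SE 0.17, edgeR adjusted p = 0.108). Il6st, the shared receptor subunit of the interleukin 6 family, was at 146.6 to 154 against 163 to 221 CPM in the same groups (-0.30, SE 0.12, adjusted p = 0.180), and Nfkbiz in males at 11 to 12.7 against 9.26 to 10.8 CPM (0.28, SE 0.13, adjusted p = 0.553), both likewise named after their values were known. The 2 challenges were sampled at different times, 10 min after restraint and 18 h after PSD, and the 2 patterns were not compared by a test. Il1b, Nfkbiz and Cebpd are named for their calls after restraint, and Lcn2 and Clu were chosen after PSD. A contrast between them follows in part from these choices.

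**Figure D4:**
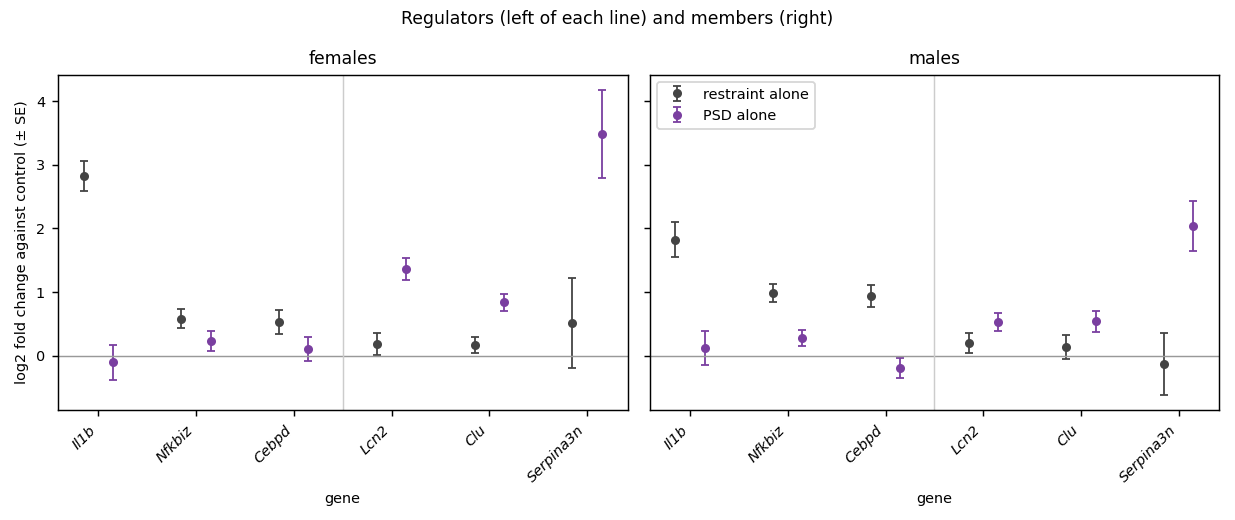
Log2 fold change against control (vertical axis, points with bars of ± 1 SE) in females and males after restraint alone (dark grey) and PSD alone (purple), for Il1b, Nfkbiz and Cebpd on the left of each panel and for Lcn2, Clu and Serpina3n on the right. Il1b is at 2.82 in females and 1.82 in males after restraint and near 0 after PSD, and Lcn2 is at 1.36 and 0.54 after PSD and at 0.19 and 0.20 after restraint. Il1b, Nfkbiz and Cebpd are shown because they passed the test for restraint alone in all mice. Lcn2 and Clu were chosen for their rise after PSD, so the contrast between the sides follows in part from these choices.

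After PSD + restraint, 5 of the 27 regulators were higher in all mice and none lower, where 5.46% of all genes were called. Those of smallest p were Il1b at 2.23 (SE 0.20), Nfkbiz at 1.11 (SE 0.11) and Cebpd at 0.85 (SE 0.14). The other 2, named after their values were known, were Cebpb at 1.26 and Osmr at 0.48. The median of the list was 0.10 against 0.00 over all genes. Of 39 other acute phase genes, 19 were tested in all mice, and after PSD + restraint Cd14, the lipopolysaccharide co-receptor, rose by 0.46 (SE 0.11, adjusted p = 0.00599). For PSD alone the only call in that list was Ttr, which was high in PSD female 3 alone. Of 19 complement genes tested, 1 was called after PSD + restraint in all mice, a share near that of all genes, and it was Cfb, the factor B protease, at 0.36 (SE 0.12, adjusted p = 0.0410). In females C1qa, a subunit of the first component, was higher by 0.46 (SE 0.12, adjusted p = 0.0476). None passed for PSD alone or restraint alone, where 0.671% and 1.14% of all genes were called in all mice.

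The other lists had 1 or 2 genes called after PSD + restraint in all mice, of 12 to 17 tested, against 5.46% of all genes there and 2.2% in females, so their counts are not read as results about the lists. Of 15 iron and heme genes tested, Cybrd1, a ferric reductase, was higher after PSD + restraint in females by 0.47 (SE 0.11, adjusted p = 0.0253) and in all mice by 0.33 (SE 0.10, adjusted p = 0.0289). None of that list passed for PSD alone, where 0.671% of all genes were called in all mice. Of 12 receptors of the members, Trem2 was higher in females by 0.66 (SE 0.16, adjusted p = 0.0390) after PSD + restraint. In all mice Lrp2, which takes up Lcn2 and Clu, was higher by 0.66 (SE 0.22, adjusted p = 0.0492) and C3ar1, a receptor for a C3 fragment, lower, at -0.38 (SE 0.12, adjusted p = 0.0454). Of 17 metalloproteinases and inhibitors, Adamts1 was higher after PSD + restraint in all mice by 0.75 (SE 0.15, adjusted p = 0.00165) and Timp3 by 0.33 (SE 0.07, adjusted p = 0.00420). Timp1 did not pass there at a similar 0.31 (SE 0.13), and it was not compared with Timp3 by a test. Trem2 and C1qa are also macrophage markers, and Cd68 and C1qa, 2 of the 8 markers of macrophages and microglia, were higher in PSD + restraint females. The summed markers of that list ran from 72.6 to 77.2 CPM in control females and from 86.3 to 103 in PSD + restraint females, and from 78.3 to 88.4 and 81.0 to 86.9 in the corresponding males. Lcn2 and C4b deviated with that sum within groups (Pearson r = 0.48 and 0.82 over 28 mice). With the brain markers C4b had r = 0.72 and Serpina3n 0.69, and Serpina3n had 0.72 with the olfactory markers and -0.66 with the hormone transcripts. PSD female 1 was the highest mouse for the brain and olfactory markers and for both genes. By rank (Spearman) the same correlations were 0.47, 0.49, 0.57 and -0.63. The part of these tissues in the levels was not tested.

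**Figure D5:**
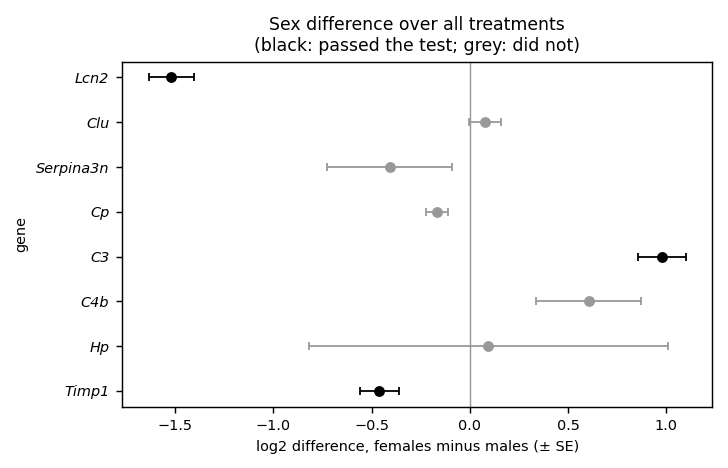
Log2 difference of females minus males over all treatments for the 8 members (horizontal axis, points with bars of ± 1 SE), in black where the difference passed the test and in grey where it did not. Lcn2 lies at -1.52, Timp1 at -0.46 and C3 at 0.98, and Clu lies at 0.08.

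The sexes differed in the level of 3 members, against 14.9% of all genes called between females and males. Lcn2 was 1.52 lower in females on the log2 scale (SE 0.11, edgeR adjusted p = 4.8e-11), and Timp1 fell by 0.46 from males to females (SE 0.10, adjusted p = 6.2e-04). C3 was 0.98 higher in females (SE 0.12, adjusted p = 4.6e-07). For C3 the 16 females ran from 9.97 to 26.2 CPM with a median of 16.3 and the 12 males from 4.14 to 12.5 CPM with a median of 8.66. Lcn2 ran from 10.3 to 51.3 CPM in females, with a median of 25.1, and from 48.6 to 127 CPM in males, with a median of 71.5. Cp was lower in females by less than a call required (-0.17, SE 0.06, adjusted p = 0.0187), C4b did not pass at 0.60 (SE 0.27, adjusted p = 0.0811), and Clu, at 0.08 (SE 0.08, adjusted p = 0.509), did not either. Of the 8 neutrophil markers tested, 7 were lower in females, with summed levels of 3.85 to 17.6 CPM in females and 9.63 to 129 in males, and within groups the correlation of Lcn2 with that sum was -0.15 (28 mice). The part of neutrophils in the sex difference was not tested.

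The difference between the female and male responses was examined in the fit of 1 mean per group. For Lcn2, the female response to PSD alone exceeded the male one by 0.83 (SE 0.25) and the response to PSD + restraint by 0.71 (SE 0.25) on the log2 scale, given with no test because these values chose the gene. Over all genes, none passed the test of this difference in edgeR for restraint alone, PSD alone or PSD + restraint (0% each), with 804, 2038 and 1363 genes under an unadjusted p of 0.05, and DESeq2 called 0, 18 and 10 genes, no member among them. In CPM, the group means rose from 14.1 ± 3.09 (SD, n = 4) to 36.1 ± 6.46 (SD, n = 4) in females and from 52.9 ± 4.45 (SD, n = 4) to 76.3 ± 5.41 (SD, n = 3) in males.

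The genes most like each member across mice were named by their correlation with it, as a description with no test, over 28 mice that share groups and library composition. With the mean of each sex removed, Lcn2 was followed most closely by Mgp (r = 0.85), Cp (0.83), Etv4 (0.82), Lrrc7 (0.82) and Serpina3n (0.81) among 18935 genes. Clu ranked 26th (r = 0.77). These values still hold the rise after PSD by which Lcn2 and Clu were chosen, so genes that were higher after PSD rank high in them by construction. Clu itself was led by Cdh13 (0.96), Chga (0.95), Arg1 (0.95), Serpinb11 (0.95) and Cst6 (0.94). With the mean of each of the 8 groups removed, so that treatment no longer contributes, Lcn2 was followed by Osmr, a receptor subunit for oncostatin M (0.76), Fndc1 (0.70), Alox12e (0.69), AK189100 (0.66) and Tagln (0.65), with Cp at rank 12 (0.62) and Serpina3n at rank 1271 (0.29). PSD + restraint male 3 was the highest mouse for both Lcn2, at 127 CPM, and Osmr, at 7.81 CPM against at most 4.92 elsewhere. Within groups Lcn2 and Clu did not vary together (r = 0.05), and Clu was led by Itm2c (0.96), Trp53i11 (0.93), Aloxe3 (0.91), Sepn1 (0.91) and Rbfox3 (0.91).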

How the data were processed

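Whole pituitary RNA was sequenced in 28 mice. According to the labels and the study's methods, reads were aligned with MapSplice to mm10 and counted per gene with HTSeq 0.9.1, and the authors deposited raw counts. A second deposited table of normalized values was not used. Whether counting used strand is not given in the sources used here. The 8 members, the related lists, the motifs and the tests were chosen with earlier results of these data known.

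Genes were filtered with filterByExpr and tested with edgeR 4.0.16 in R 4.3.3 (TMM scaling, quasi-likelihood F test), in females, males, all mice (with sex as a term), and with 1 mean per group. P-values were adjusted by the method of Benjamini and Hochberg over all genes tested. Calls needed an adjusted p of 0.05 or less and a change of 1.25-fold or more, and all 8 members were tested in each fit. SE was derived from the F statistic. CPM values carry the TMM factors, and a prior count of 2 was added on the log2 scale. Named related genes were at most the 3 of smallest p per list and comparison. The models recovered known changes in simulated counts. Replicates are single mice. Alternatives included DESeq2 1.42.0, other filters and each mouse left out, and leaving out 5 libraries together was added after seeing the data. Gene coordinates and exon lengths came from GENCODE M21, and upstream sequences from RefSeq (GRCm38.p6). Some results of the related lists are not reported here.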

Additional observations from a re-analysis of the deposited data

Results flagged for a closer look

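Within groups of 4 mice, 1 mouse was far from the other 3 in 6 of 40 groups of members by Dixon's criterion, which chance meets in about 1 of 20. Hp in restrained female 3 (32.6 CPM) lay far above the next at 0.203 CPM, and C4b and Serpina3n in PSD female 1 (14.9 and 27.6 CPM) lay above the next at 3.53 and 4.2 CPM. Clu in PSD + restraint female 4 was low, at 746 CPM against 948 CPM in the nearest mouse. Serpina3n was low in control female 4 (0.428 CPM, nearest 0.948 CPM) and high in PSD + restraint female 3 (5.88 CPM, nearest 5.22 CPM).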

How the results depend on the processing

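Low counts limit Hp, C4b and Serpina3n, and 2 restrained males limit the male comparisons that include them (restraint alone, PSD among restrained mice and the interaction). Counts of members called changed under several alternatives, and the cause was not tested. Calls over all genes are given below for DESeq2 only, so the changed counts are not read as results about the members. With DESeq2, 2 members passed for PSD alone in females, 1 in males, 1 for PSD among restrained mice in all mice, and 0 for restraint in all mice. With robust dispersion, PSD + restraint called 0 in females and 1 in males, and restraint in all mice 0. With the neurointermediate lobe term it called 0 in females and 1 in all mice, while PSD alone in males and PSD among restrained mice in all mice called 1 each, and the Clu sex difference turned to -0.017. Without the 5 libraries that stood apart, a choice made after seeing the data, 1 member passed for PSD alone in males, 1 for PSD + restraint in males, 1 for PSD among restrained mice in all mice and 0 for restraint in all mice, where Hp was at -0.19. With only the groups compared, the counts were 1 for PSD + restraint in males, 1 for PSD among restrained mice and 0 for restraint in all mice, and the last was also 0 with at least 10 counts in every mouse.

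Same-numbered mice of 1 sex in different groups deviated together no more than others (median r = -0.03 over 39 pairs, 0.02 over 110 other pairs). A median over pairs cannot exclude that the numbers pair some mice. With the replicate block, PSD + restraint called 0 members in males, restraint 0 in all mice and PSD among restrained mice 1 in all mice.

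Leaving out 1 mouse at a time, the members called ranged in females from 0 to 2 for PSD alone, 0 to 1 for PSD + restraint and 0 to 1 for PSD among restrained mice. In males they ranged from 0 to 1 and from 0 to 2 for the first 2 of these. In all mice they ranged from 0 to 1 for restraint, 1 to 2 for PSD alone, 1 to 3 for PSD + restraint, 0 to 2 for PSD among restrained mice, and 3 to 5 between the sexes. In males the log2 fold change of restraint ranged from -0.12 to 0.47 for Lcn2 and -0.15 to 0.39 for Clu, and the interaction for Lcn2 from -0.048 to 0.54, in each case by which restrained male was left out. Hp after restraint ranged from -0.22 (without restrained female 3) to 4.80 in all mice.

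Over all genes DESeq2 called more than edgeR for PSD alone (437 against 5 in females, 81 against 1 in males, 290 against 127 in all mice), PSD + restraint (729 against 398 in females, 720 against 467 in males), restraint alone (207 against 98 and 101 against 54) and PSD among restrained mice (106 against 6, 123 against 1 and, in all mice, 59 against 18).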
